A study of Homo sapiens with 19 samples.

Results

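Expressions of 10 genes of the integrated stress response and of amino acid supply were followed in human embryonic stem cells (hESCs) during the first days of their differentiation into brown adipocytes (BAs). The genes were ATF4, DDIT3, ATF3, TRIB3, CHAC1, SESN2, ASNS, PSAT1, PHGDH and SLC7A11. They were listed by name as members of this response, with no threshold on their values, and were found on the arrays through the RefSeq accession of each probe. All 10 had a probe, 15 probes in all, of 20503 genes with a probe. Each of the 15 was well above background on all 19 arrays, and all 10 genes were among the 16694 genes that entered the tests.

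The integrated stress response is a signal that eukaryotic cells use when amino acids run short, unfolded proteins collect in the endoplasmic reticulum (ER), heme is lacking or double-stranded RNA appears. Each of these conditions activates its own kinase, all of which phosphorylate the translation initiation factor eIF2. Protein synthesis in general is then lowered, while the mRNA of the transcription factor ATF4 is translated more, owing to short reading frames ahead of its coding region. ATF4 turns on genes for amino acid synthesis and uptake, tRNA charging and glutathione supply, and, under longer stress, DDIT3 (also called CHOP), which is tied to cell death. Because ATF4 is governed largely at translation, the level of its mRNA, which arrays measure, is not a measure of its protein. Pluripotent stem cells divide fast and are known for their high demand for amino acids.

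The cells were KhES-3, a hESC line that carries no engineered allele here. The labels describe hESCs kept on irradiated mouse embryonic fibroblasts in medium with basic fibroblast growth factor, whereas the study's methods name a feeder-free system for the line. For induction, the cells were moved to low-attachment dishes in a serum-free differentiation medium with insulin, transferrin and selenium, ascorbic acid phosphate, monothioglycerol, lipids and the cytokines IGF-II, BMP4, VEGFA, KITLG, FLT3LG and IL-6, and all 19 samples received it. One sample was harvested at each of 19 times, at 3, 4 and 6 h, then every 2 h to 16 h, every 4 h to 36 h and every 6 h to 72 h, and its RNA was hybridized to a one-colour Agilent array. No sample before induction and no uninduced culture of the same age is among the 19, so a change over time is a change from 3 h onward, and the effects of the cytokines, of the medium and of time in culture cannot be told apart.

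There were no replicates, so a trend is set against how far single arrays lie from it. Of the 3 slides used, 6 arrays from 3 to 12 h filled the first, the 8 from 14 to 42 h the second and the 5 from 48 to 72 h the third. Slide and time therefore overlap, and changes were also measured within each slide. Each signal below is relative to its array's 75th percentile (655 to 1003 unscaled), set to 871 for all arrays. On an array, 49.5% to 64.7% of probes were well above background. The lowest shares were those at 14 h (49.5%), 16 h (52.0%) and 72 h (53.8%), and the 75th percentile was lowest at 66 and 72 h. Of the pluripotent stem cell markers, all 7 with a matched probe were above background on all 19 arrays (TDGF1 had no matched probe). Of 8 adipocyte and brown adipocyte markers, 4 reached the tests and 0 were above background on all arrays. Of 8 fibroblast markers, 5 reached the tests, and COL1A1, COL1A2 and THY1 were above background throughout. The summed signal of the 7 pluripotency markers was 608039 to 624262 at 3 to 6 h and 481443 to 497284 at 60 to 72 h. That of the 5 fibroblast markers was 39342 to 42573 and 29901 to 47143, and that of the 4 adipocyte markers 136 to 319 and 108 to 118. The part of these shifts in the results below was not tested, and fewer cells of a type cannot be told apart from less RNA per cell.

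The promoters of 3 of the 10 genes carry the letters that ATF4 is known to recognise, and these stretches are shown because 2 of the 3 genes fell with time. ATF4 binds DNA as a dimer with a C/EBP protein at a composite site, searched here as TGATGNAAN on both strands, from 250 bases before to 50 bases after each start listed by RefSeq (GRCh38.p14). A match was found in ASNS, CHAC1 and ATF3, which is 3 of the 9 members with a listed promoter (SLC7A11 has no entry), against 4.45% of 27303 genes. The capitals mark the match, and each sequence is written on the strand of its gene.
ASNS, chr7:97872422-97872521, minus strand: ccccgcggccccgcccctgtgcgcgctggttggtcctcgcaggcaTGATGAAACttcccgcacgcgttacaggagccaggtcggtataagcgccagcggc
CHAC1, chr15:40953221-40953315, plus strand: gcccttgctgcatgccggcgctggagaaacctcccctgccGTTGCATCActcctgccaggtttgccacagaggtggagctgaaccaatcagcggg
ATF3, chr1:212565171-212565270, plus strand: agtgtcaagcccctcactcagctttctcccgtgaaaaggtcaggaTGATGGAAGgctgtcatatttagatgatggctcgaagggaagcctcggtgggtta
The match lay 68 to 60 bases before the start of ASNS, 210 to 202 bases before that of CHAC1, where it reads on the opposite strand, and 191 to 183 bases before a start of ATF3. The antioxidant response element, TGACNNNGC, to which NRF2 binds, was found in 1 of the 9, TRIB3, against 16.1% of genes. The cyclic AMP response element, TGACGTCA, and the ER stress response element were found in 0 of the 9, against 2.25% and 0.0916% of genes. A match is a description of the letters, and a window without one says nothing of the factor.

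Over the whole time course, DDIT3 rose, ATF4, ASNS, CHAC1, SESN2, PSAT1 and SLC7A11 fell, and the slopes of TRIB3, ATF3 and PHGDH did not pass the test. The test was the slope of log2 signal on hours (limma, Benjamini-Hochberg over all 32113 probes tested, adjusted p under 0.05). Thus 1 of 10 rose and 6 of 10 fell, against 24.6% and 29.8% of all genes tested. The median change from the 3 arrays at 3 to 6 h to the 3 arrays at 60 to 72 h was -0.53 on the log2 scale over the members and -0.05 over all genes. A cubic curve in hours, which also takes up a rise followed by a fall, was past the threshold for 8 of 10 members (all but TRIB3 and ATF3), against 79.6% of all genes. Once the slide entered the fit as a block, PSAT1 alone passed the slope test. Of all 32113 probes tested, 1513 rose and 1434 fell in that fit, against 9927 and 7207 without the block.

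**Figure D1:**
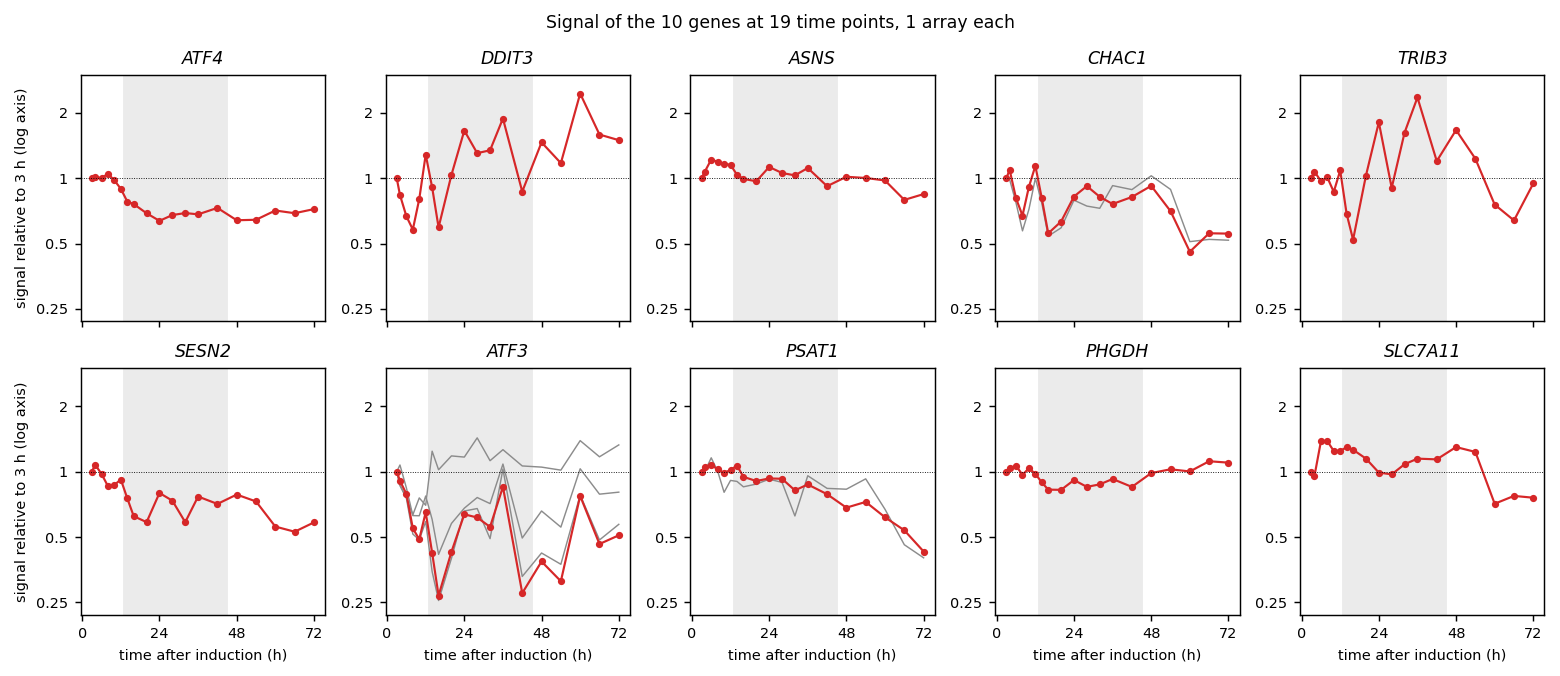
Signal of each gene relative to its own 3 h array (log axis) against hours after induction, with 1 array at each point. Red points are the probe with the highest mean signal, grey lines are other probes of the gene, and the grey band is the second slide. PSAT1 descends to its lowest signal at 72 h, while DDIT3, TRIB3 and ATF3 swing between neighbouring arrays.

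ATF4 encodes the transcription factor at the centre of the response. Its signal was lowest at 24 h (80063), had a median of 90667 and was highest at 8 h (131797). The 5 arrays from 3 to 10 h lay at 122885 or above, and the 13 arrays from 14 h on at 98190 or below. The mean was 126363 at 3 to 6 h and 88917 at 60 to 72 h, 1.42-fold lower. The slope was past the threshold (adjusted p = 0.00212), as was the cubic curve (adjusted p = 5.1e-06). The fall lay between 10 and 24 h, across the border of the first and second slides, and later values stayed between 80559 and 91822. Within no slide did the change pass the test, with -0.05 ± 0.07 (SE) on the log2 scale in the first, -0.08 ± 0.07 in the second and 0.14 ± 0.08 in the third. With the slide as a block, its slope had an adjusted p of 0.943, and the change of slide and the change of time cannot be told apart between 12 and 14 h.

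DDIT3, the stress-induced partner of the C/EBP proteins, was the one member whose slope was past the threshold upward. The lowest signal was 432 at 8 h, the median 874 and the highest 1827 at 60 h. The mean rose from 614 at 3 to 6 h to 1340 at 60 to 72 h, 2.18-fold (adjusted p = 0.00259). The early and late arrays did not overlap, with 745 at 3 h as the highest of the early values and 1114 at 72 h as the lowest of the late ones. The rise was not steady, since 42 h (646) lay below 3 h and below the value of 12 h (957). Within slides, DDIT3 changed by 0.03 ± 0.33 in the first, 0.66 ± 0.33 in the second (adjusted p = 0.189) and 0.46 ± 0.37 in the third (adjusted p = 0.439). Its slope also passed the test when arrays were scaled by their medians, and not with spike-in RNA (adjusted p = 0.225) or with the slide as a block (adjusted p = 0.389).

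ATF3, another stress-induced bZIP factor, which p53 and growth signals also induce, had its highest signal at the first array. It was 18119 at 3 h, lower at each array to 8853 at 10 h, had a median of 9935 and was lowest at 16 h (4870). Thereafter it reached 15436 at 36 h and 14012 at 60 h, with 5002 at 42 h and 5675 at 54 h in between. Neither the slope (adjusted p = 0.241) nor the cubic curve (adjusted p = 0.213) passed the test. The 4 probes of ATF3 did not run alike. The dimmer probe A_33_P3214096 rose (adjusted p = 0.0111), from a mean of 350 at 3 to 6 h to 521 at 60 to 72 h, while the brightest had means of 16225 and 10289 at these times. The other dim probes had late minus early differences of -0.53 and -0.16 on the log2 scale, with slopes that did not pass the test.

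TRIB3 encodes a pseudokinase that is induced by ATF4 and DDIT3 and holds back their activity. Its signal was lowest at 16 h (1655), had a median of 3202 and was highest at 36 h (7470), which is 4.51-fold higher and the widest range of the 10 genes. The slope did not pass the test (adjusted p = 0.86) and changed sign when arrays were scaled by their medians or by spike-in RNA. Within the second slide TRIB3 rose, from a mean of 2273 at 14 to 20 h to 5269 at 32 to 42 h (1.21 ± 0.29, adjusted p = 0.0152). It was 1 of 10 members that rose there, against 9.1% of all genes, and 0 of 10 fell, against 8.79%. This call rested on single arrays, with an adjusted p of 0.0746 without 16 h and of 0.0696 without 36 h. On the third slide, means were 4544 at 48 to 54 h and 2445 at 60 to 72 h (-0.89 ± 0.33, adjusted p = 0.0833).

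CHAC1, a target of ATF4 and DDIT3, encodes an enzyme that breaks down glutathione. Its lowest signal was 4785 at 60 h, its median 8418 and its highest 11893 at 12 h. The 3 arrays from 60 to 72 h (4785, 5818 and 5797) included the lowest of the 19, and 16 h (5814) lay among them. Its mean fell from 10003 at 3 to 6 h to 5444 at 60 to 72 h, 1.84-fold (adjusted p of the slope = 0.0126). The dimmer probe had means of 864 and 490 at these times, with a slope that did not pass the test (adjusted p = 0.177). On the last slide the change was -0.63 ± 0.21 (adjusted p = 0.0589) for the brightest probe and -0.88 ± 0.20 (adjusted p = 0.0122) for the dimmer one, so both calls depended on the probe.

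SESN2 encodes sestrin 2, which restrains the growth kinase complex mTORC1 when leucine is scarce and is induced by ATF4 and by p53. Its signal was lowest at 66 h (543), had a median of 773 and was highest at 4 h (1104). The mean fell from 1043 at 3 to 6 h to 571 at 60 to 72 h, 1.83-fold (adjusted p = 0.00122), and the early and late arrays did not overlap. It also fell on the third slide alone, from a mean of 776 to 571 (-0.44 ± 0.12, adjusted p = 0.026). Of its paralogs, SESN3 rose over the time course (0.59 from early to late, adjusted p = 0.00562) and SESN1 had a late minus early difference of 0.16 (adjusted p = 0.475).

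ASNS encodes asparagine synthetase, a classical amino acid response gene. Its signal ranged over 1.53-fold, from 22145 at 66 h to 33974 at 6 h, with a median of 28717. The mean fell from 30463 at 3 to 6 h to 24207 at 60 to 72 h, 1.26-fold (adjusted p = 0.00343). The arrays at 66 and 72 h (22145 and 23547) were the lowest of the 19, while 60 h (27203) lay near 3 h (27875), so the early and late arrays came close without overlapping. No within-slide change passed the test.

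PSAT1, the aminotransferase of serine synthesis, had the smallest adjusted p of the 10 genes. Its signal was highest at 6 h (34643), had a median of 29815 and was lowest at 72 h (13793). The mean fell from 33465 at 3 to 6 h to 16776 at 60 to 72 h, 1.99-fold (adjusted p = 6.6e-08), and the second probe fell by 1.07 on the log2 scale. Every array from 48 h on lay below every array before it. The values at 48, 54, 60, 66 and 72 h were 21954, 23329, 19825, 17268 and 13793. Within the third slide PSAT1 fell by 0.43 ± 0.12 (adjusted p = 0.0286), and the change was -0.23 ± 0.11 (adjusted p = 0.159) in the second. With the slide as a block its slope was -0.0173 ± 0.0037 on the log2 scale per hour (adjusted p = 0.0094), close to that without the block (-0.0157 ± 0.0014).

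PHGDH, the dehydrogenase that opens the same pathway, had no slope past the threshold. Its signal was lowest at 20 h (19217), had a median of 22776 and was highest at 66 h (26024), a range of 1.35-fold that is the narrowest of the 10. Means were 24077 at 3 to 6 h, 19741 at 14 to 20 h and 24978 at 60 to 72 h. The slope did not pass the test (adjusted p = 0.386) and turned negative under both of these other scalings. The cubic curve was past the threshold (adjusted p = 0.0013), with the low part on the second slide. Over the last 5 arrays PHGDH stayed between 22958 and 26024 while PSAT1 fell, and the difference between the 2 courses was not tested.

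SLC7A11 encodes the light chain of the cystine importer, which feeds glutathione synthesis and is a target of both ATF4 and NRF2. Its first 4 arrays read 4608, 4406, 6348 and 6366, the last of these being the highest of the 19. The median was 5293 and the lowest value 3281, at 60 h. The 3 late arrays (3281, 3565 and 3498) lay below the other 16, the lowest of which was 4406. The slope was past the threshold (adjusted p = 0.0131), but over 3 to 54 h alone it was 0.000169 on the log2 scale per hour (adjusted p = 0.966), so that the fall did not appear without the last 3 arrays. Within the third slide SLC7A11 fell from a mean of 5831 at 48 to 54 h to 3446 at 60 to 72 h, 1.69-fold (-0.76 ± 0.13, adjusted p = 0.00224).

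**Figure D2:**
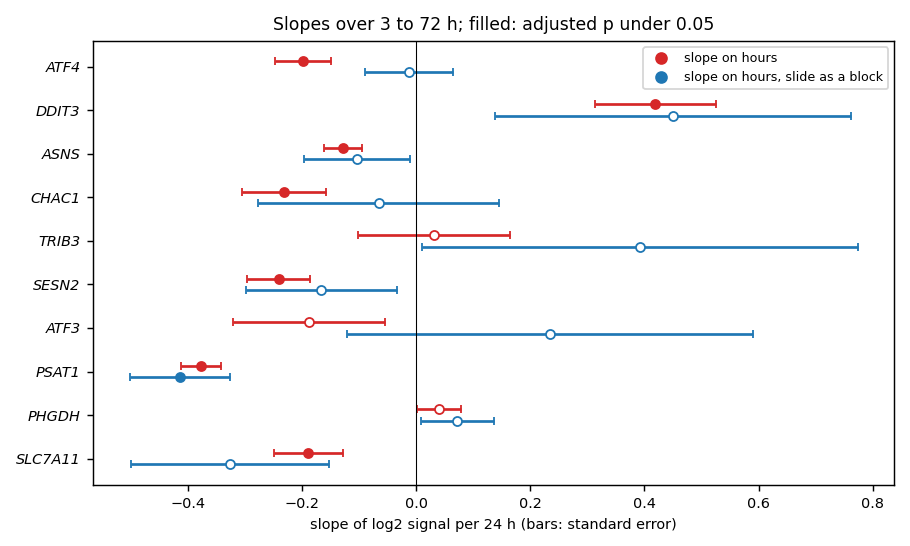
Slope of log2 signal per 24 h for each gene, with standard errors as bars, without (red) and with (blue) the slide as a block. Filled points have an adjusted p under 0.05. Without the block 7 genes are filled, and with it PSAT1 alone. Of all 32113 probes tested, 9927 rose and 7207 fell without the block, and 1513 and 1434 with it.

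Changes within a slide compare arrays that were processed on the same glass. In the first slide, 8 to 12 h minus 3 to 6 h, 0 of 10 members rose and 0 fell, against 0.863% and 1.71% of all genes, and at an unadjusted p under 0.05 limma also gave 0 and 0. The widest difference there was that of ATF3, -0.68 ± 0.32 (adjusted p = 0.294). SLC7A11 had 0.23 ± 0.11 and passed the test once the 6 h array was left out (adjusted p = 0.0164). In the second slide TRIB3 alone passed, and at an unadjusted p under 0.05 PSAT1 was also lower. In the third slide, 60 to 72 h minus 48 to 54 h, 0 of 10 rose and 3 of 10 fell (SLC7A11, SESN2 and PSAT1), against 6.25% and 10.1% of all genes. At an unadjusted p under 0.05, 0 were higher and 5 lower, with CHAC1 and TRIB3 added. The share of all genes at an unadjusted p under 0.05 was not counted for any slide. The unadjusted counts therefore cannot be set against the shares given here, which are for adjusted p. The median over the members was -0.32, against -0.02 over all genes.

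These falls on the third slide rested on 5 arrays. Without 48 h none of the 3 passed (adjusted p = 0.052 for SLC7A11, 0.142 for PSAT1 and 0.217 for SESN2), and without 54 h or 66 h SLC7A11 alone did. Without 72 h the change of PSAT1 was -0.29 and lost its call (adjusted p = 0.0797). Arrays of the other slides counted through the shared spread. Without 8, 12 or 14 h, CHAC1 passed on the third slide (-0.63, adjusted p = 0.0348, 0.0433 and 0.0494). The directions did not change in any of these fits. With spike-in RNA as the scaling 8 of 10 members fell there, including ATF4 (-0.65, adjusted p = 0.0231) and PHGDH (-0.70, adjusted p = 0.0123), both of which had positive differences at the main scaling. On that scaling 73.2% of all genes fell on the third slide and 0.18% rose, with a median change of -0.82.

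**Figure D3:**
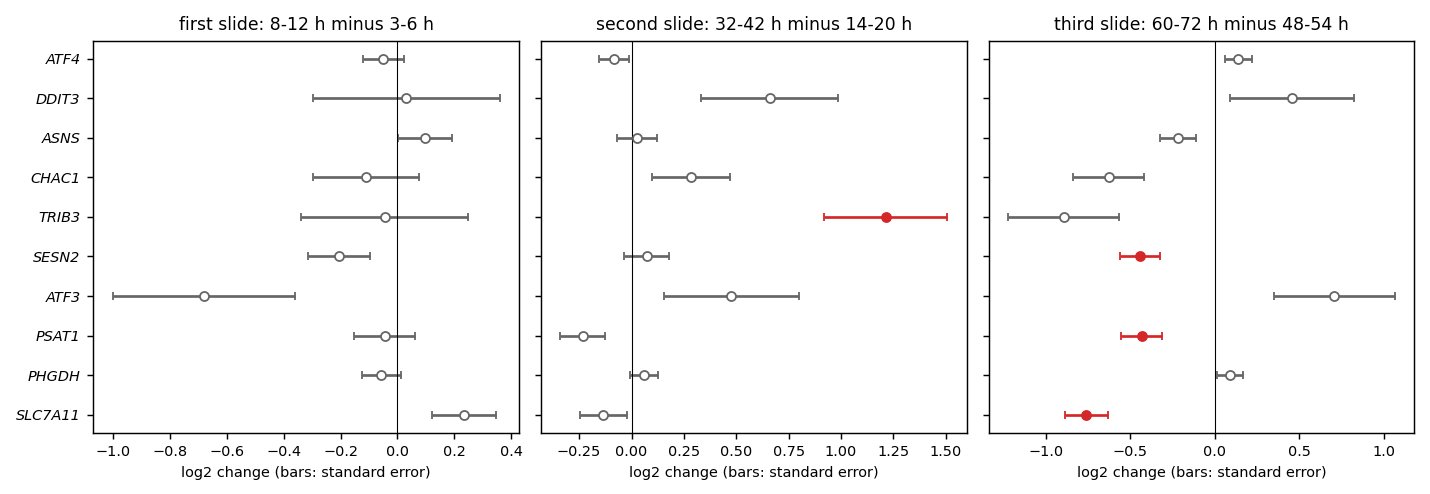
Log2 change of each gene within the first slide (8-12 h minus 3-6 h), the second (32-42 h minus 14-20 h) and the third (60-72 h minus 48-54 h), with standard errors as bars. Red points have an adjusted p under 0.05 and are TRIB3 on the second slide and SESN2, PSAT1 and SLC7A11 on the third.

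DDIT3 and ATF3 moved together from array to array. From 12 to 16 h DDIT3 went from 957 to 442 and ATF3 from 11790 to 4870, and at 24 h they stood at 1234 and 11532. The step from 12 to 16 h was as deep in TRIB3 (-1.06) and CHAC1 (-1.03) as in DDIT3 (-1.11). It crosses from the first slide to the second, so slide and time cannot be told apart from 12 to 14 h. Within the second slide, from 14 to 16 h, DDIT3 went from 676 to 442 and ATF3 from 7672 to 4870. CHAC1 went from 8418 to 5814 and TRIB3 from 2174 to 1655 between these arrays. From 36 to 42 h DDIT3 went from 1402 to 646 and ATF3 from 15436 to 5002. From 54 to 60 h DDIT3 went from 874 to 1827 and ATF3 from 5675 to 14012. Thus both were low at 16 and 42 h and high at 24, 36 and 60 h. The same steps were seen in GDF15, a secreted stress cytokine that is a target of DDIT3, ATF4 and p53, with 16219, 8186 and 14366 at 12, 16 and 24 h, 26320 and 12765 at 36 and 42 h, and 17659 and 64052 at 54 and 60 h. Over the 18 steps between neighbouring arrays, Pearson's r was 0.93 between DDIT3 and ATF3, 0.84 between ATF3 and GDF15 and 0.77 between DDIT3 and GDF15. Taken over signal levels instead of steps, r was 0.27 between DDIT3 and ATF3 and 0.14 between ATF3 and GDF15. It was 0.75 between DDIT3 and GDF15. ATF3 thus shared the steps of DDIT3 and GDF15 far more than their course over the whole time. These values are descriptions over arrays that share their scaling, and each array enters 2 neighbouring steps.

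The steps from 36 to 42 h and from 54 to 60 h were the widest between neighbouring arrays for DDIT3 and ATF3. Their size is therefore a description and no test. From 36 to 42 h the step was -1.12 for DDIT3, -1.63 for ATF3 and -0.97 for TRIB3 on the log2 scale. The other members ranged from -0.28 (ASNS) to 0.11 (CHAC1) there. The SD over all genes tested was 0.38, and 5.66% of genes were lower by more than 0.5. At 54 to 60 h it was 1.06 for DDIT3 and 1.30 for ATF3, where the SD over all genes was 0.39 and 5.36% were higher by more than 0.5. The cut of 0.5 lies below these steps, so the shares do not count the genes that moved as far. A step is the difference of 2 single arrays and has no replicate check.

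The step from 54 to 60 h divided the members. DDIT3, ATF3 and GDF15 (1.86) were higher at 60 h, while SLC7A11 (-0.79), TRIB3 (-0.70), CHAC1 (-0.62), SESN2 (-0.38) and PSAT1 (-0.23) were lower. ATF4 (0.14), ASNS (-0.04) and PHGDH (-0.03) lay closer to the median of all genes (-0.02), and 7.73% of genes were lower by more than 0.5 at this step. TRIB3 and CHAC1, which are targets of DDIT3 as well as of ATF4, were thus at opposite sides from DDIT3 at these arrays. Over all 18 steps, however, r with DDIT3 was 0.56 for TRIB3 and 0.22 for CHAC1. Between SLC7A11 and GDF15, r over the 18 steps was -0.62. For the other members that were lower at 60 h, r with GDF15 was -0.23 (PSAT1), -0.09 (CHAC1), 0.11 (SESN2) and 0.34 (TRIB3).

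**Figure D4:**
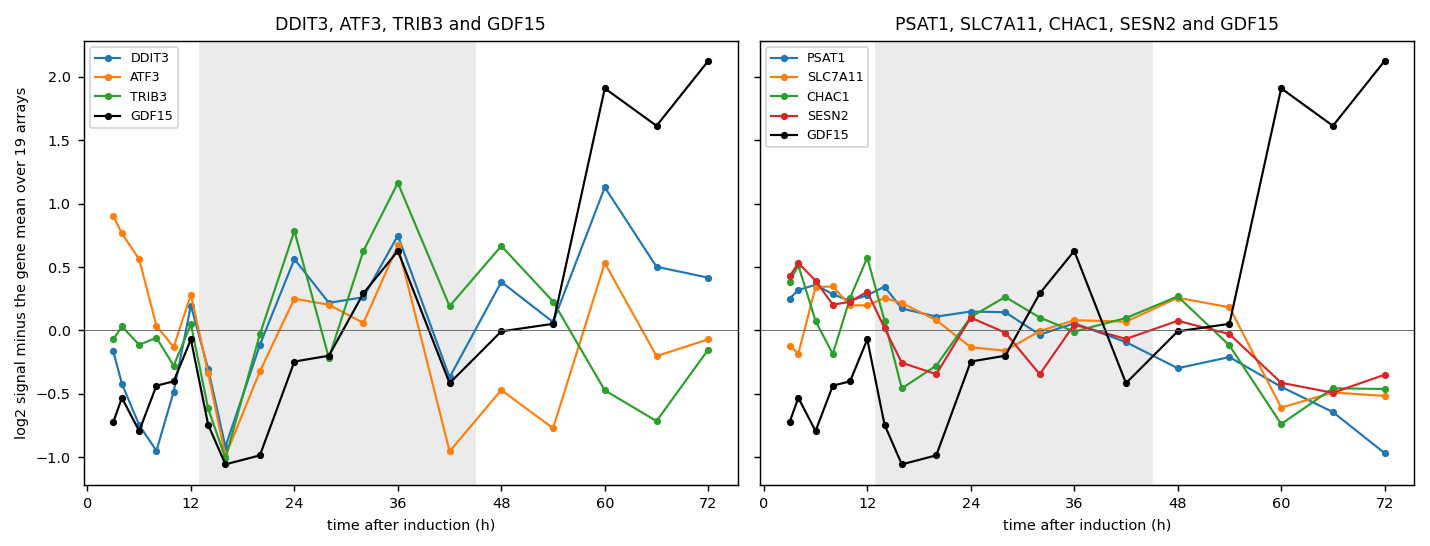
Log2 signal minus the mean of the gene over the 19 arrays, against hours after induction, for DDIT3, ATF3 and TRIB3 (left) and for PSAT1, SLC7A11, CHAC1 and SESN2 (right), with GDF15 in black in both panels and the second slide in grey. DDIT3, ATF3 and GDF15 share the dips at 16 and 42 h and the rise at 60 h, at which the 4 genes on the right are lower than at 54 h.

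The genes whose course over the 19 arrays was most like that of a member, by Pearson's r among the 13969 genes above background on all arrays, were different for each member. For ATF4 they were JTB (r = 0.97) and SRSF7 (0.97), a splicing factor. For DDIT3 they were NR1D1 (0.94), a repressor of the circadian clock, and LGALSL (0.92). For ATF3 they were NOCT (0.90), a phosphatase with a daily rhythm in many tissues, and RHOB (0.89), a small GTPase that stress induces quickly. For PSAT1 they were PCLAF (0.98), which binds the replication clamp PCNA, and EIF4A3 (0.98), a core part of the exon junction complex. For PHGDH they were RACK1 (0.95), a ribosomal protein, and CCDC85B (0.94). No member was among the 2 genes most like another. As 13969 genes were ranked, this does not tell how alike the members were. The best matches of ASNS (EPS15 and NPPB), SESN2 (PLXNB2 and STAMBP) and SLC7A11 (ZNF790-AS1 and DZANK1) had r between 0.90 and 0.92, and those of CHAC1 (PHC2 and HDHD5) and TRIB3 (SAV1 and KLHL3) between 0.82 and 0.87. Over the 18 steps between neighbouring arrays, r was lower for each of these pairs. It ranged from 0.49 (SESN2 with STAMBP) to 0.89 (DDIT3 with NR1D1), and was 0.61 for ATF4 with JTB and 0.65 for PSAT1 with PCLAF.

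Upstream of ATF4, transcripts of the 4 eIF2 kinases were above background on all arrays, and 1 of the 4 passed the slope test. EIF2AK1, the heme-sensing kinase, had a late minus early difference of -0.13 (adjusted p = 0.852) and EIF2AK3, the ER kinase PERK, one of -0.48 (adjusted p = 0.163). EIF2AK2, the kinase activated by double-stranded RNA, fell by 0.12 (adjusted p = 0.0434). EIF2AK4, which senses uncharged tRNA and is also called GCN2, did not pass the slope test (-0.48, adjusted p = 0.123) and fell within the third slide, from a mean of 6023 at 48 to 54 h to 4093 at 60 to 72 h (-0.56, adjusted p = 0.00252). PPP1R15A, a target of DDIT3 whose protein, GADD34, leads the phosphatase back to eIF2, rose from a mean of 893 to 1285 (0.52, adjusted p = 0.0111). Its slope did not pass the test with the array median (adjusted p = 0.263), spike-in RNA (adjusted p = 0.687) or the slide as a block (adjusted p = 0.117). Of the 13 genes tested among kinases, phosphatase subunits and subunits of eIF2 and eIF2B, 1 rose and 4 fell. The shares of all genes were 24.6% and 29.8%. EIF2S2 (-0.61) and EIF2B1 (-0.56) were among those that fell.

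Among 12 other bZIP factors and cofactors, 2 rose and 4 fell, against 24.6% and 29.8% of all genes. CREB3L3, an ER-bound factor known from liver, rose from a mean of 117 to 469 (2.00, adjusted p = 1.08e-08), also with the slide as a block (adjusted p = 0.0016). ATF2 rose by 0.44 (adjusted p = 0.0265), with a slope that turned negative with spike-in RNA as the scaling. JUN fell by 1.25 (adjusted p = 0.00197). ATF5, itself translated under eIF2 phosphorylation, fell by 0.84 (adjusted p = 0.0157) and within the third slide by 1.17 (adjusted p = 0.00358).

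Of 18 other listed targets of ATF4 and DDIT3, 6 rose and 1 fell, against 24.6% and 29.8% of all genes. Their median late minus early change was 0.25. With spike-in RNA as the scaling 1 rose and 3 fell, against 3.58% and 44.5% of all genes. GDF15 rose from a mean of 10611 to 62888 (2.57, adjusted p = 1.86e-05) and KLHL24 from 880 to 1934 (1.14, adjusted p = 3.27e-05), while EIF4EBP1, an mTORC1 substrate that blocks translation, fell by 0.80 (adjusted p = 9.23e-07). Within the third slide 6 rose and 0 fell, against 6.25% and 10.1% of all genes. Those that rose were GDF15 (1.86), TNFRSF10B (0.67), BBC3 (0.51), GADD45A (0.70), SQSTM1 (0.70) and SESN3 (0.58). Of these, GDF15, TNFRSF10B, BBC3, GADD45A and SESN3 are also known as targets of p53 or of FOXO factors. With spike-in RNA as the scaling, where 73.2% of all genes fell and 0.18% rose, GDF15 alone of the 18 rose (1.07, adjusted p = 0.011) and 5 fell. The other 5 genes then had values from -0.29 (BBC3) to -0.09 (SQSTM1), against a median of -0.82 over all genes.

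Genes of amino acid supply fell more often than they rose, where 24.6% of all genes rose and 29.8% fell. Of 10 enzymes of serine, glycine and one-carbon metabolism, 1 rose and 5 fell, with GCAT (0.45, adjusted p = 0.00184) the one that rose and MTHFD1 (-0.65, adjusted p = 0.00018) and the mitochondrial folate carrier SLC25A32 (-0.62, adjusted p = 0.00123) lowest. Of 15 other enzymes of amino acid metabolism, 1 rose and 11 fell. Among those that fell was BCAT2 of branched-chain amino acid turnover (-0.81, adjusted p = 2.11e-07). The median over these 15 was -0.49, close to that of the members.

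Of 14 amino acid transporters, 0 rose and 7 fell, against 24.6% and 29.8% of all genes. SLC7A5, the large neutral amino acid transporter, fell from a mean of 9528 to 1792 (-2.41, adjusted p = 2.25e-10), and SLC7A1, the cationic one, from 3315 to 1160 (-1.51, adjusted p = 2.84e-07). Both fell with the slide as a block too (adjusted p = 0.0015 and 0.027). In that fit 1513 of all 32113 probes tested rose and 1434 fell. Outside the members, it is given here for CREB3L3, PPP1R15A, SLC7A5 and SLC7A1 only. In the slopes of the other listed genes, slide and time cannot be told apart. Within the third slide 0 rose and 7 fell, against 6.25% and 10.1% of all genes. SLC3A2, the heavy chain that SLC7A5 and SLC7A11 share, had a late minus early difference of -0.32 (adjusted p = 0.575), and whether its course differed from those of its partners was not tested.

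Of 12 aminoacyl-tRNA synthetases, 2 rose and 6 fell, against 24.6% and 29.8% of all genes. AARS1 (0.41, adjusted p = 0.000365) and SARS1 (0.12, adjusted p = 0.0392) rose, and the slope of SARS1 turned negative under both other scalings. MARS1 fell from a mean of 19006 to 8000 (-1.25, adjusted p = 4.13e-08) and TARS1 by 0.59 (adjusted p = 1.49e-05). Of 9 genes of glutathione and cystine handling, 2 rose and 4 fell. Both subunits of the rate-limiting ligase passed the test in opposite directions, with GCLC falling by 1.10 (adjusted p = 2.14e-08) and GCLM rising by 0.79 (adjusted p = 0.00962). CHAC2, the paralog of CHAC1, fell by 1.06 (adjusted p = 6.42e-05). SLC3A1 rose, but was above background on 13 arrays only, with a mean of 22 at 3 to 6 h and 108 at 60 to 72 h.

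ER chaperones and other arms of the unfolded protein response mostly fell, with 2 of 15 rising and 8 falling. DNAJB9, a target of the IRE1 arm, rose by 0.84 (adjusted p = 0.000257) and SEL1L by 0.57 (adjusted p = 0.034), while CRELD2 (-0.96, adjusted p = 4.28e-06) and DNAJB11 (-0.89, adjusted p = 1.18e-07) fell. HSPA5, the chaperone BiP and the standard readout of ER stress, had means of 2291 at 3 to 6 h and 2004 at 60 to 72 h (adjusted p = 0.931). Of 13 mTORC1 regulators, which include SESN2, 4 rose and 4 fell, with TSC1 (0.76, adjusted p = 1.77e-05) and SESN3 highest and SESN2 and EIF4EBP1 lowest. The lists share SESN1, SESN2, SESN3, DDIT4, EIF4EBP1 and SLC3A2 in part. Their counts over the whole time course are to be read against the 24.6% of all genes that rose and the 29.8% that fell.

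The scaling of the arrays bears on these counts. On the log2 scale, the spike-in signal lay 4.74 above the 75th percentile at 66 h and 4.75 at 72 h. On the other arrays it lay 3.54 (28 h) to 4.37 (32 h) above it. Scaled by array medians, the median late minus early change of all genes was -0.42, and with spike-in RNA it was -0.70, against -0.05. Among all probes with a slope past the threshold, 57.9% were rising at the main scaling, 29.6% with the array median and 11.7% with spike-in RNA. The median of the members moved with it, to -0.90 and -1.17, since a scaling shifts all genes of an array alike. With spike-in RNA 0 members rose and 7 fell, against 3.58% and 44.5% of all genes. DDIT3 kept a positive slope under all 3 scalings (adjusted p = 0.00259, 0.0333 and 0.225), and the 6 members that fell also fell with the array median and with spike-in RNA. Of the other genes described as rising, CREB3L3, GDF15 and SLC3A1 passed the slope test under all 3 scalings, KLHL24, DNAJB9 and TSC1 passed it with the array median and not with spike-in RNA, and PPP1R15A, ATF2, SESN3, GCAT, AARS1, SARS1, GCLM and SEL1L passed it with neither.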

How the data were processed

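The authors deposited, for each array, Agilent Feature Extraction 10.10.1.1 output (version per the labels) with a background-subtracted processed intensity per spot, not scaled between arrays, the median pixel intensity of spot and background, and other columns of 0 or 1 flags. They also deposited an intensity table equal to the processed intensity times 1 factor per array (0.905 to 1.38, largest deviation 0.0232%). The rule behind these factors is not given in the sources used here. Flagged spots (232 to 814 per array of 61657) were left out, no spot was saturated, and spots of a probe were averaged. The log2 intensity minus that of the 75th percentile of the array entered limma 3.58.1 (R 4.3.3, functions lmFit and eBayes) for the 32113 of 50683 probes that 5 or more arrays called well above background. The fits were a slope on hours, a cubic curve, and contrasts between windows of neighbouring times on 1 slide, with Benjamini-Hochberg adjustment. The times of a window are not replicates, and their spread holds the change within the window. Probes were named through RefSeq (28174 probes, 20503 symbols), and a gene is its brightest probe. All tests are two-sided, SE is that of the fit, and late minus early differences are descriptions, set beside the p of the slope. The fits were also run on simulated data with independent noise and no slide effect. That run does not bear on the overlap of slide and time.

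The genes named are the 10 members, GDF15, the eIF2 kinases and PPP1R15A, the 2 largest rises and falls past the slope threshold in each list, and the 2 genes most like each member. Some genes that this rule names are not reported here. SESN1, SLC3A2 and HSPA5, and the genes that rose within the third slide, were named after their values were seen. Members and lists were chosen with earlier results of these data known. The alternatives were other scalings (array median, spike-in RNA from 7 of 10 levels, normexp with offset 50 and quantile normalization on median pixel intensities, the deposited table), other filters, the mean of all probes, log2 hours, the slide as a block, 3 to 54 h alone, 72 h minus 3 h, and each array left out in turn. The number of arrays limits the precision. Blots, quantitative PCR and later times were not analysed here. Python 3.11.15, numpy 2.4.6, pandas 2.3.3 and matplotlib 3.10.9 were used for tables and figures.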

Additional observations from a re-analysis of the deposited data

How the results depend on the processing

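No paired analysis was possible because there was 1 array per time. The slide as a block left 0 members rising, 1 falling (PSAT1) and 1 with a changed cubic curve. Of all 32113 probes tested, it left 1513 rising, 1434 falling and 10154 with a changed cubic curve. The main fit had 9927, 7207 and 24658. Normexp with quantile normalization gave 2 rising, 3 falling, 5 with a changed cubic curve and a median late minus early change of -0.36. Over all 32113 probes it gave 7583 rising, 6831 falling and 22104 with a changed cubic curve. Spike-in RNA gave 0 rising, 0 higher on the second slide, 8 lower on the third and a median of -1.17, the median of each array gave a median of -0.90, arrays from 3 to 54 h gave 3 falling, and no filter on background gave 1 lower on the third slide. The cause was not tested beyond the fewer arrays or more probes of a setting.

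With each array left out in turn, 5 to 6 members fell, 1 to 1 rose, 6 to 8 had a changed cubic curve, 0 to 1 rose and 0 to 0 fell on the first slide, 0 to 2 rose and 0 to 0 fell on the second (0 without 16 h or 36 h, 2 without 42 h, where ATF3 joined with an adjusted p of 0.0343), 0 to 0 rose and 0 to 4 fell on the third (0 without 48 h, 1 without 54 h or 66 h), and the median late minus early change lay between -0.574 and -0.468. The slope of SLC7A11 lost its call without 72 h (adjusted p = 0.0589).

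Of 1340 values of single members under another setting, 1250 kept direction and side of the threshold, 44 lost and 19 gained a call and 27 changed sign. Most of these values came from fits with 1 array left out, which share the other arrays with the main fit. Most were also not past the threshold in the main fit and so had no call to lose. The late minus early differences, which have no test, are not among them. Of the 27, 1 had been past the threshold, the slope of SLC7A11, which was 0.000169 over 3 to 54 h. Slopes per hour that changed sign were those of TRIB3 (-0.00395 with the array median, -0.00716 with spike-in RNA, and -0.000299 to 0.00533 with an array left out), PHGDH (-0.00357 and -0.00677 with these scalings, -0.00288 on log2 hours, -0.00185 over 3 to 54 h) and ATF3 (0.00977 with the slide as a block). Changes that reversed on the first slide were those of DDIT3 (-0.0150 with the array median, -0.273 to 0.301 with an array left out), ATF4 (-0.105 to 0.0102), CHAC1 (-0.291 to 0.0899) and TRIB3 (-0.118 to 0.0458). On the second they were those of ASNS (-0.0123 with the array median, -0.244 with spike-in RNA, -0.0378 to 0.101 with an array left out), SESN2 (-0.200 with spike-in RNA, -0.0125 to 0.184) and PHGDH (-0.212 with spike-in RNA). On the third, spike-in RNA gave -0.655 for ATF4, -0.335 for DDIT3, -0.0858 for ATF3 and -0.700 for PHGDH.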
